A study of Mus musculus with 8 samples.

Results

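The hippocampus of male mice given the insecticide clothianidin was compared with the hippocampus of male mice given vehicle, on Affymetrix expression arrays. The comparison uses 4 of the study's 8 arrays, chosen by their labelled tissue and arm, and every probe set of the deposited table that carries a gene symbol (19572 of 22206). Mice were 12 weeks old. Exposed mice received clothianidin at 50 mg/kg/day for 2 weeks, a dose the submitters give as one without observed adverse effects, and control mice received a vehicle with 1% DMSO over the same time. The controls are the arrays numbered 1 and 6 in the labels (control 1 and control 6), and the exposed arrays are those numbered 3 and 6 (exposed 3 and exposed 6). The other 4 arrays hold cerebral cortex from the same arms under the same numbers. The labels do not state the strain or the route, and they do not say whether each array of a group is a different animal. The p-values here therefore cover the spread among the arrays at hand, part of which may be technical.

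Clothianidin is a neonicotinoid, a class of compounds that activate nicotinic acetylcholine receptors and bind those of insects more tightly than those of mammals. Nicotinic receptors are cation channels built from several subunits and opened by acetylcholine. In rodent hippocampus, receptors made of the Chrna7 subunit and receptors that combine the Chrna4 and Chrnb2 subunits are the best known, and they act on both interneurons and glutamatergic terminals. The hippocampus itself is made of the dentate gyrus and the pyramidal fields CA1, CA2 and CA3, and it borders the subiculum, the entorhinal cortex and, in the ventricle, the choroid plexus.

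All values below are log2 expression values per probe set, so a difference of 1 is a 2-fold difference, and differences are exposed minus control unless another order is given. No background or detection value came with the arrays. Array medians lay between 5.21 and 5.4, and having 2 arrays per group limits the precision of every statement. Markers of hippocampal fields separated the tissues: Prox1 of dentate granule cells measured 11.34 to 11.96 in the 4 hippocampus arrays and 6.44 to 6.87 in cortex, and Fibcd1 of CA1 measured 9.29 to 10.53 against 4.93 to 5.54. The pair of control hippocampus arrays differed more than any other pair, with 27 of 14804 probe sets at least 8-fold apart, against 4 in exposed hippocampus, 5 in control cortex and 1 in exposed cortex.

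Control 1 stood apart through transcripts of the choroid plexus, the epithelium that secretes cerebrospinal fluid. Transthyretin, Ttr, its most abundant secreted product, measured 19.51 in control 1, 7.76 in control 6, 7.27 in exposed 3 and 6.39 in exposed 6. The folate receptor gene Folr1 measured 11.55, 4.43, 3.36 and 4.97 in the same order, which is used for all lists of 4 values below. In both genes control 1 was high and control 6 lay close to the exposed arrays, so a mean over the controls describes neither array. Set against control 1 alone, the exposed mean was lower by more than 2 for 52 named genes, and set against control 6 alone for 4. No gene was lower by that much against each of them, while Tshz2 and Ccn2 were higher by more than 2 against each. The plot of the exposed mean against single control arrays shows this spread. Among the cortex arrays, Ttr was high in control 6 (15.41) and measured 4.17 in control 1, 5.73 in exposed 3 and 4.68 in exposed 6.

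**Figure D1:**
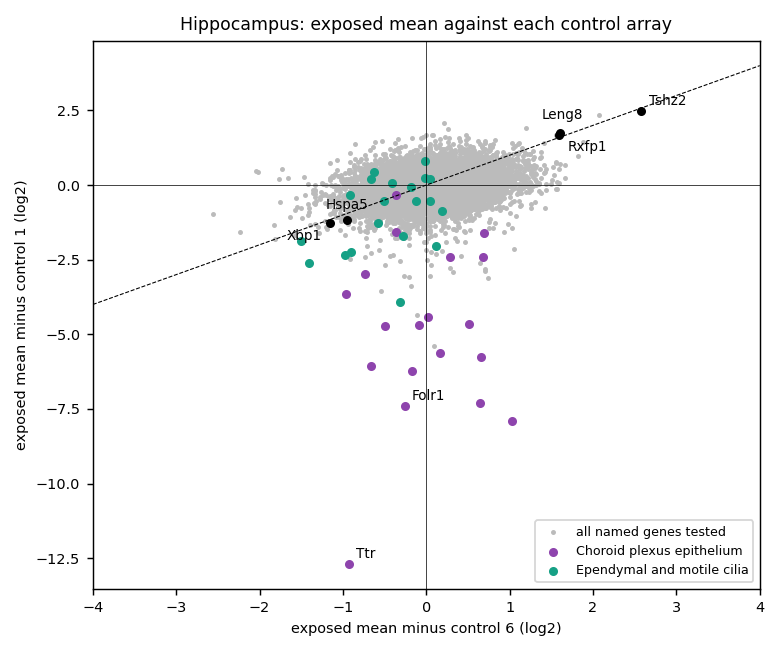
Each point is 1 named gene, placed by the exposed hippocampus mean minus control 6 (x axis, log2) and minus control 1 (y axis, log2), with the dashed line where both are equal. Choroid plexus genes (purple) run far below 0 mainly on the y axis, down to -12.68 for Ttr, while Tshz2, Leng8, Rxfp1, Hspa5 and Xbp1 lie close to the dashed line.

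Tshz2 rose in exposed hippocampus. It encodes a teashirt zinc finger transcription factor that marks groups of projection neurons in cortex and subiculum. Tshz2 measured 8.33 and 8.24 in the control arrays and 11.29 and 10.35 in the exposed arrays, so the groups did not overlap and the exposed arrays were 0.94 apart. The means were 8.28 ± 0.06 and 10.82 ± 0.66 (SD, n = 2), a difference of 2.54 (SE 0.31, 95% interval 1.86 to 3.21) or 5.8-fold, with limma adjusted p = 0.045. Against single controls the exposed mean was higher by 2.49 (control 1) and 2.58 (control 6). It was the only probe set past the adjusted threshold of 0.05 among 14804 (0.00675%; 1 higher and 0 lower). Before adjustment, p was under 0.05 for 860 probe sets (5.81%). The call did not survive leaving out control 1 (difference 2.58, adjusted p = 0.25), exposed 3 (2.06, 0.61), or any 1 cortex array, which enter only through the shared estimate of spread (0.12 to 0.14). It remained without control 6 (0.011) or exposed 6 (3.0, 0.01). Over all alternatives the difference lay between 2.06 and 3.00 and the adjusted p between 0.01 and 0.97.

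The other teashirt factors and the related ZFHX factors were higher by less. Tshz3 measured 7.25, 8.29, 9.09 and 8.44 (difference 0.99, SE 0.36), and both exposed arrays lay above both controls. Zfhx2 measured 7.37, 7.68, 7.67 and 8.24 (0.43, SE 0.32), and its groups overlapped. Tshz1 measured 6.76, 5.63, 6.69 and 6.30 (0.30, SE 0.36), with the lowest value in control 6; its difference was -0.27 without that array. All 5 tested members of this list of 6 had a positive difference, with a median of 0.43, and 2 of 5 had both exposed arrays above both controls. Tshz2 itself counts in each of these values, and the list was chosen with earlier results of these data known. The list is therefore no separate support for Tshz2. Genes with that pattern, or with both exposed arrays below both controls, are called apart below; 16.7% of all 13198 named genes tested were apart in the higher direction and 14.2% in the lower.

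Single genes were selected by a rule: an unadjusted p under 0.01, a difference of 1.5-fold or more, no overlap between the groups, and an exposed mean at least 1.5-fold away from each control array taken alone. The rule sets no limit on the gap between the 2 arrays of a group. It selected 93 genes as higher (0.702% of 13241 probe sets with a symbol) and 67 as lower (0.506%). Apart from Tshz2 none passed the adjusted threshold, with limma adjusted p between 0.31 and 0.77. The count of higher genes was 60 without cortex control 1 and 57 without cortex control 6. The genes with the 15 smallest p in each direction are described below by role, and the plot of the 30 selected genes gives each array.

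**Figure D2:**
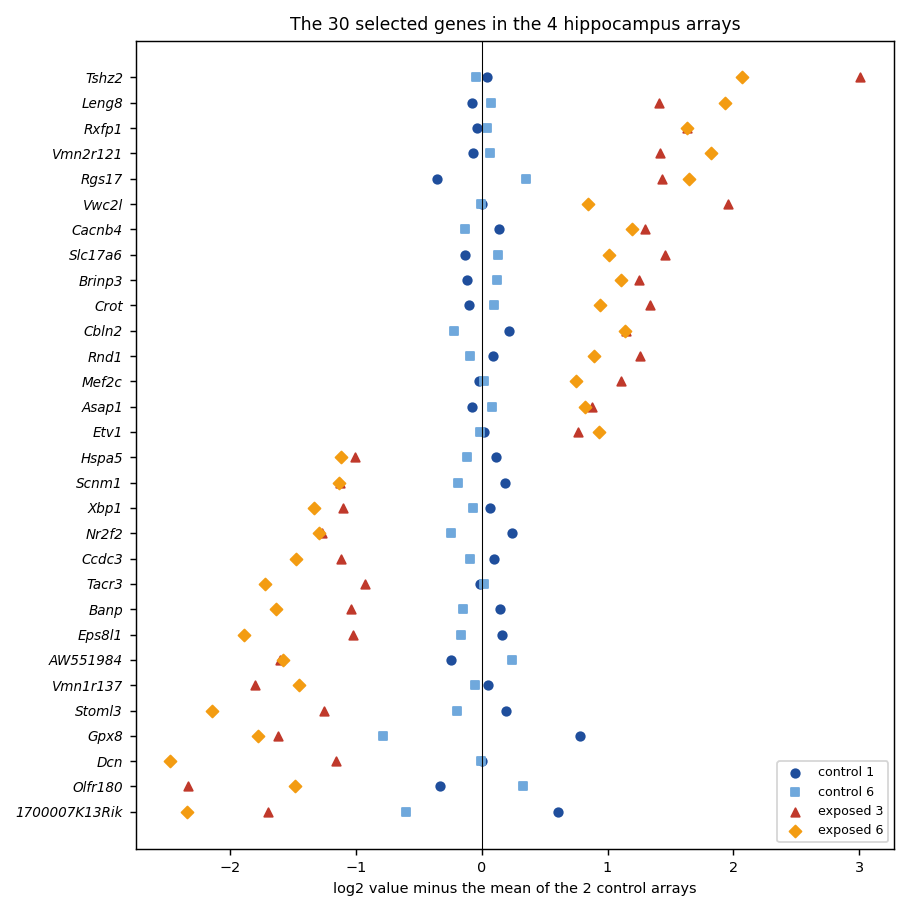
The 30 selected genes in the 4 hippocampus arrays, as the log2 value minus the mean of the 2 control arrays (x axis), 1 row per gene and 1 symbol per array. Exposed arrays (triangles and diamonds) lie to the right of both controls for the upper 15 genes and to the left for the lower 15, a pattern that the selection itself requires; Gpx8 and 1700007K13Rik have the widest gap between the controls.

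Among the selected higher genes were several of neuronal excitability and transmission. Cacnb4, an auxiliary subunit of voltage-gated calcium channels, measured 11.68, 11.41, 12.84 and 12.74 (difference 1.25, SE 0.24). Slc17a6, the vesicular glutamate transporter VGLUT2 that loads glutamate in subicular, thalamic and other neurons, measured 7.23, 7.49, 8.82 and 8.37 (1.24, SE 0.27). Rgs17, which speeds the shut-off of G proteins of inhibitory receptors, measured 7.14, 7.85, 8.93 and 9.14 (1.54, SE 0.31). The gap between groups exceeded the gap within either group in all 3 genes. Rgs17 passed the adjusted threshold in 1 of 18 alternatives, without control 6 (1.90, limma adjusted p = 0.034).

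The relaxin receptor gene Rxfp1 measured 6.32 and 6.40 in the controls and 7.99 in each exposed array (1.63, SE 0.31). Cbln2, a secreted organiser of synapses, measured 5.63, 5.19, 6.56 and 6.55 (1.14, SE 0.26). Vwc2l, a secreted protein related to BMP antagonists, measured 6.22, 6.21, 8.17 and 7.06 (1.40, SE 0.34). Rxfp1 and Cbln2 were nearly equal in the exposed arrays, while Vwc2l was 1.11 higher in exposed 3 than in exposed 6.

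Transcription factors in this set were Mef2c, which controls neuronal differentiation and synapse number, and Etv1, an ETS factor of projection neurons. Mef2c measured 13.13, 13.17, 14.26 and 13.90 (0.93, SE 0.21), and Etv1 measured 12.95, 12.92, 13.70 and 13.87 (0.85, SE 0.20). The controls of both genes agreed to within 0.04. Regulators of the cytoskeleton were Rnd1, at 6.15, 5.97, 7.32 and 6.95 (1.08, SE 0.26), and Asap1, an Arf GTPase-activating protein, at 12.15, 12.31, 13.11 and 13.05 (0.85, SE 0.20).

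The others were Leng8, Brinp3, Crot and Vmn2r121. Leng8, a nuclear protein gene, measured 6.36, 6.51, 7.84 and 8.37 (1.67, SE 0.28), the largest of the 4. Brinp3, a neural BRINP family gene, measured 7.53, 7.77, 8.90 and 8.76 (1.18, SE 0.25). The peroxisomal acyltransferase gene Crot measured 8.65, 8.85, 10.09 and 9.69 (1.14, SE 0.27). The vomeronasal receptor gene Vmn2r121 measured 3.52, 3.65, 5.0 and 5.41, with a control mean under the filter limit of 3.94, so its difference of 1.62 is against a level not shown to be above background.

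Many of these genes are also more abundant in cortex than in hippocampus. Control cortex averaged 11.92 for Tshz2, 14.23 for Cacnb4, 10.02 for Slc17a6, 17.46 for Mef2c, 10.81 for Cbln2, 10.17 for Rnd1 and 10.44 for Brinp3, each above both exposed hippocampus arrays. This held for 10 of the first 15 higher genes (66.7%) and for 39 of all 93 selected higher genes (41.9%), against 32.6% of all probe sets with a symbol. Control cortex lay below both exposed arrays for 44.1% of the 93, against 44.9% overall. Among the first 15 lower genes control cortex also lay above both exposed hippocampus arrays in 10 (66.7%), and among all 67 in 36 (53.7%). For the 7 genes named in this paragraph the exposed hippocampus arrays therefore lay between control hippocampus and control cortex in level. Whether the margins of the dissected tissue differed between arrays was not tested.

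**Figure D3:**
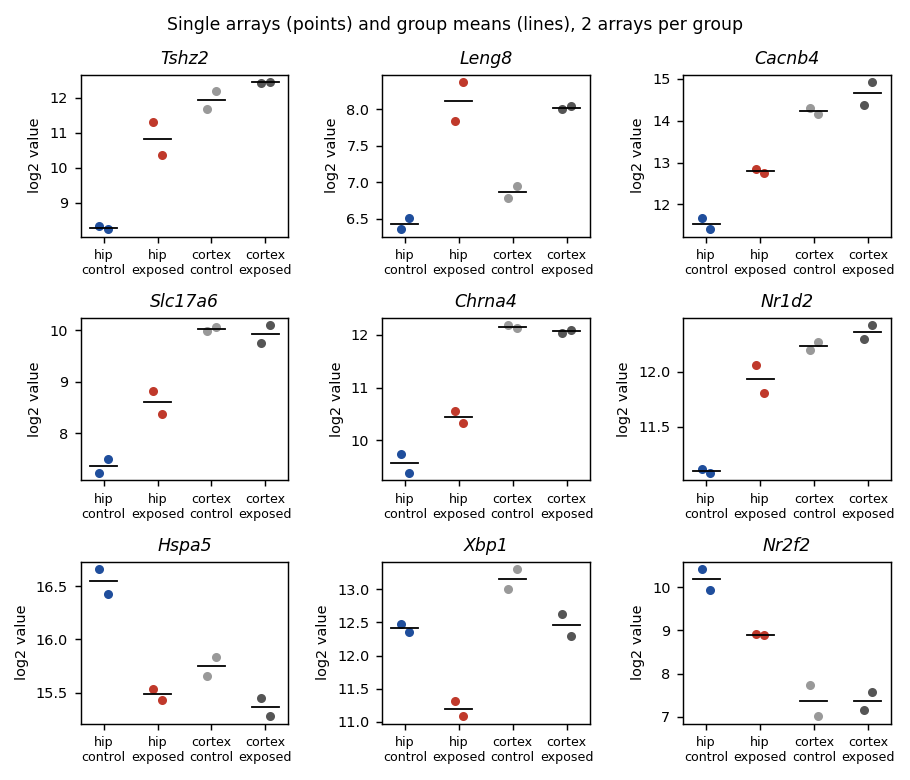
Log2 values (y axis, own scale per gene) of 9 genes in single arrays (points) with the mean of 2 (lines), for control and exposed hippocampus and control and exposed cortex. In Tshz2, Cacnb4, Slc17a6, Chrna4 and Nr1d2 the exposed hippocampus lies between control hippocampus and control cortex; Hspa5 and Xbp1 have lower exposed means in both tissues, and Nr2f2 has a lower exposed mean in hippocampus beside cortex means of 7.37 and 7.36.

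The list for neurons of the subiculum, entorhinal cortex and deep cortical layers, neighbours of the hippocampus proper, had the largest positive median of the 17 marker lists. It also holds genes of other cortical layers, such as Cux2, Rasgrf2 and Rorb. Of 26 tested members 18 had a positive difference, 11 with an unadjusted p under 0.05 in that direction (3.27% of all named genes) and 12 with both exposed arrays above both controls (16.7%). The median difference was 0.423 (0.005 over all named genes), 0.43 against control 1 and 0.515 against control 6, and it was 0.527 in exposed 3 and 0.36 in exposed 6. The list shares members with others here, and its 4 with the smallest p are Tshz2, Rxfp1, Slc17a6 and Etv1, described above. The selection rule also picked Vwc2l, Fn1, Ccn2 and Nts of this list as higher. The list was chosen with earlier results of these data known, so its counts beside the shares of all named genes are not independent support. Nts, the neuropeptide neurotensin, which is made by subicular neurons, measured 6.06, 6.43, 7.38 and 7.53 (1.21, SE 0.31). Sulf1, also of this list, went the other way and was high in control 1 alone, at 11.56, 6.09, 6.64 and 5.72 (-2.64, SE 1.17). In a bulk tissue sample more cells of a type and more RNA per cell cannot be told apart.

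Markers of the hippocampal fields themselves did not move together. Of the CA1 markers 4 of 9 were higher (median -0.04; 0.20 against control 1 and -0.025 against control 6), and their 2 clearest members differed in direction. Fibcd1, a CA1 marker, measured 10.53, 10.29, 9.29 and 9.68 (-0.92, SE 0.30), and Ndst4, a heparan sulfate sulfotransferase gene, measured 10.53, 10.04, 11.14 and 11.38 (0.98, SE 0.28). Wfs1, another CA1 gene, measured 11.25, 10.98, 12.09 and 11.35 (0.60, SE 0.33). Of 9 CA3 markers 8 had a negative difference, all with an unadjusted p above 0.05 (median -0.155), and of 11 dentate granule cell markers 6 were higher (median 0.07). CA2 markers had a median of -0.30 over 7, of which 5 were lower and 2 higher. Of the 7, 2 were apart in the lower direction (14.2% of all named genes) and 1 in the higher (16.7%). The calcium-binding protein gene Necab2 measured 8.45, 8.21, 7.72 and 6.92 (-1.01, SE 0.32) and the adhesion gene Amigo2 7.08, 7.19, 6.75 and 6.64 (-0.44, SE 0.30). Cacng5 went the other way, at 5.20, 5.21, 5.63 and 5.97 (0.60, SE 0.30). The CA2 median was 0.11 against control 6 alone.

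The nicotinic receptor subunits, the targets of clothianidin, were measurable in part. Of 13 subunit genes on the array 5 passed the filter on low values, and the other 8 (Chrna1, Chrna2, Chrna3, Chrna9, Chrna10, Chrnb1, Chrnb3 and Chrnb4) were not tested. Chrna4 measured 9.74 and 9.38 in the controls and 10.55 and 10.32 in the exposed arrays (0.88, SE 0.23, unadjusted p = 0.0028, limma adjusted p = 0.77). Chrna6 measured 4.88, 5.15, 5.66 and 5.66 (0.64, SE 0.29), and Chrna5 measured 5.73, 5.64, 6.21 and 5.98 (0.41, SE 0.29). In these 3 subunits, of 5 tested, both exposed arrays lay above both controls, a pattern found in 16.7% of all named genes. The remaining subunits overlapped between groups: Chrna7 measured 10.42, 9.43, 9.52 and 9.76 (-0.28, SE 0.34), with control 1 highest, and Chrnb2 measured 9.04, 9.42, 9.21 and 9.77 (0.26, SE 0.31). Without control 1 Chrna7 differed by 0.21, and without exposed 6 Chrnb2 differed by -0.02. Chrna4 and Chrnb2, whose subunits assemble together, were not tested against each other.

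Genes that make, break down or otherwise sense acetylcholine had a median difference of 0.025 over 13 tested, which was -0.08 against control 1 and 0.31 against control 6. Of the 13, 8 were higher and 5 lower, with 2 apart in the higher and 1 in the lower direction, beside 16.7% and 14.2% of all named genes. The muscarinic receptor gene Chrm3 measured 7.98, 8.07, 8.49 and 9.10 (0.77, SE 0.29), and Bche, which encodes the acetylcholine-splitting enzyme butyrylcholinesterase, measured 4.79, 4.42, 6.02 and 5.19 (1.00, SE 0.33). Both exposed arrays were above both controls in these genes. Chrm4, another muscarinic receptor, measured 7.54, 8.31, 8.86 and 8.16 (0.58, SE 0.33) and overlapped. Ly6e, of the Ly6 family of proteins, measured 16.96, 16.54, 16.84 and 15.70 (-0.48, SE 0.38), with exposed 6 low, and its difference was 0.09 without that array.

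Voltage-gated channel genes were mostly higher, by amounts that depended on the array. Of 27 tested sodium, calcium and HCN channel genes 24 had a positive difference (median 0.315). Of the 27, 3 were higher with an unadjusted p under 0.05 (3.27% of all named genes) and 10 had both exposed arrays above both controls (16.7%). The median was 0.195 in exposed 3 and 0.505 in exposed 6, and 19 of the 27 genes had their highest value in exposed 6. Besides Cacnb4, the R-type calcium channel gene Cacna1e measured 11.89, 11.43, 12.08 and 13.14 (0.95, SE 0.34). Scn1a, a sodium channel of fast-spiking interneurons, measured 9.51, 10.33, 10.38 and 10.91 (0.73, SE 0.33), and the L-type calcium channel gene Cacna1c measured 10.77, 10.90, 11.08 and 11.65 (0.53, SE 0.26). These 3 genes were highest in exposed 6, while exposed 3 lay only slightly above the higher control.

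Of 38 potassium channel genes 25 had a positive difference (median 0.188). Of the 38, 6 were higher with an unadjusted p under 0.05 (3.27% of all named genes) and 12 were apart in the higher direction (16.7%). The median was 0.075 against control 1 and 0.295 against control 6, and 0.08 in exposed 3 and 0.165 in exposed 6. Kcnh5 and Kcnh7, ether-a-go-go family channels, measured 7.14, 7.02, 7.78 and 8.01 (0.82, SE 0.27) and 8.99, 9.46, 9.69 and 10.41 (0.83, SE 0.29). The delayed rectifier Kcnb2 measured 7.79, 7.52, 8.47 and 8.34 (0.75, SE 0.26), and the inward rectifier Kcnj4 measured 6.16, 6.39, 7.08 and 6.72 (0.62, SE 0.27). All 4 had both exposed arrays above both controls.

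Regulators of G protein signalling, which shorten the response of G protein-coupled receptors, had a median difference of 0.31 over 17 tested members. Of these 14 were higher, 5 with an unadjusted p under 0.05 (3.27% of all named genes). Both exposed arrays lay above both controls in 10 of 17, against 16.7% of all named genes. After Rgs17 the clearest were Rgs2, an inducible regulator, at 7.12, 6.24, 7.81 and 7.88 (1.16, SE 0.33) and Rgs9 at 7.60, 7.23, 8.27 and 8.05 (0.74, SE 0.26). Rgs12 went the other way, at 5.95, 6.24, 5.70 and 5.12 (-0.69, SE 0.30). The median was 0.465 against control 1 and 0.28 against control 6, and 0.30 in exposed 3 and 0.43 in exposed 6.

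Excitatory glutamate receptor and transporter genes had a median difference of 0.255 (17 of 24 higher), of 0.13 in exposed 3 and 0.332 in exposed 6. Of the 24, 3 were higher with an unadjusted p under 0.05 (3.27% of all named genes). In the higher direction 11 were apart (16.7% of all named genes) and in the lower direction 1 (14.2%). After Slc17a6, the NMDA receptor subunits Grin2b and Grin2a measured 14.16, 13.65, 14.22 and 15.05 (0.73, SE 0.30) and 13.39, 13.19, 13.49 and 14.33 (0.62, SE 0.28). In both subunits exposed 6 was high and exposed 3 within 0.10 of control 1. The astrocyte transporter gene Slc1a3 measured 12.54, 13.16, 13.59 and 13.21 (0.55, SE 0.26).

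Genes of GABA receptors, synthesis and transport had a median of 0.175 (12 of 17 higher). The receptor subunits Gabrb2 and Gabrg1 measured 13.88, 13.97, 14.61 and 14.63 (0.69, SE 0.23) and 9.16, 9.07, 10.16 and 9.72 (0.83, SE 0.27). Gabra2 was lower in both exposed arrays, at 11.57, 12.04, 10.90 and 11.46 (-0.62, SE 0.28). Gad1, the main GABA-synthesising enzyme gene, measured 12.19, 11.89, 12.53 and 12.65 (0.55, SE 0.23). The median was 0.185 against control 1 and 0.19 against control 6, and 0.08 in exposed 3 and 0.27 in exposed 6. Interneuron markers as a list had a median of 0.142 over 26, which was 0.015 against control 1 and 0.315 against control 6. Among them the neuropeptide gene Vip measured 6.98, 6.18, 8.02 and 7.47 (1.16, SE 0.35).

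Of 31 presynaptic release genes 22 had a positive difference, with a median of 0.125. The median was 0.04 against control 1 and 0.24 against control 6, and 0.015 in exposed 3 and 0.26 in exposed 6, and 18 of the 31 genes were highest in exposed 6. Rims3, a small active zone protein gene, measured 4.82, 5.0, 5.90 and 5.94 (1.01, SE 0.26), and Unc13c, a vesicle priming factor, measured 4.44, 4.06, 5.71 and 4.85 (1.03, SE 0.34). Cplx3, a complexin of deep cortical and subplate neurons, measured 3.97, 5.15, 6.33 and 4.94 (1.08, SE 0.47), with exposed 3 high and the other exposed array between the controls.

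Circadian clock genes, which form a transcriptional feedback loop, were split. Of 22 tested 14 were higher, 7 with an unadjusted p under 0.05 (3.27% of all named genes). In the higher direction 10 were apart (16.7% of all named genes) and in the lower direction 3 (14.2%). The median was 0.173, with 0.07 in exposed 3 and 0.40 in exposed 6. Nr1d2, a repressor of the loop, measured 11.11, 11.08, 12.06 and 11.81 (0.84, SE 0.22), and Bhlhe41, another repressor, measured 10.74, 10.98, 11.61 and 11.72 (0.80, SE 0.24). The output factor Hlf measured 10.06, 9.81, 10.79 and 10.64 (0.78, SE 0.28) and Rora, an activator of the loop, 8.93, 8.38, 9.41 and 9.26 (0.68, SE 0.26). In all 4 both exposed arrays lay above both controls. The labels give no time of day for the dissections.

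Targets of the glucocorticoid receptor, the sensor of corticosterone, had a median of 0.265 over 19 tested members (12 higher), of 0.48 in exposed 3 and 0.205 in exposed 6. Tsc22d3, also called Gilz, measured 8.81, 9.53, 10.56 and 9.91 (1.06, SE 0.35), and Sgk1, a kinase induced by corticosterone, measured 10.66, 10.53, 11.76 and 11.19 (0.88, SE 0.42). Ddit4 measured 8.05, 8.36, 8.86 and 8.69 (0.57, SE 0.26) and the transcription factor gene Cebpd 7.72, 7.63, 8.60 and 8.02 (0.64, SE 0.30). Exposed 3 was highest in all 4, as in 11 of the 19 members. Activity-regulated immediate early genes had a median of 0.16 (23 of 35 higher). In that direction 0 had an unadjusted p under 0.05 (3.27% of all named genes) and 11 were apart (16.7%). Among them Egr3 measured 8.99, 8.95, 9.31 and 9.67 (0.52, SE 0.25), while Inhba, the activin subunit gene, was lower in both exposed arrays, at 7.03, 7.04, 6.04 and 6.05 (-0.99, SE 0.27).

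Among the selected lower genes was a pair from the endoplasmic reticulum. Hspa5, also called BiP, is the main chaperone of that compartment, and Xbp1 encodes a transcription factor that induces its chaperones when unfolded proteins build up. Hspa5 measured 16.66 and 16.43 in the controls and 15.54 and 15.43 in the exposed arrays, a difference of -1.06 (SE 0.19, 95% interval -1.48 to -0.64, limma adjusted p = 0.31). Xbp1 measured 12.48, 12.35, 11.31 and 11.08 (-1.22, SE 0.23, limma adjusted p = 0.31). The gap between the groups was over 0.8 in both genes and the gap within a group at most 0.23. Their differences ranged from -1.18 to -0.95 and from -1.34 to -1.10 over the alternatives, and neither passed the adjusted threshold in any of them. In cortex the same genes differed by -0.38 and -0.69.

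The rest of the ER chaperone and unfolded protein response list was less uniform. Of 35 tested members 23 were lower and 11 higher, with a median of -0.125; 3 of the lower ones had an unadjusted p under 0.05 (2.46% of all named genes) and 8 had both exposed arrays below both controls (14.2% of all named genes). The median was -0.28 against control 1 and -0.055 against control 6, and control 1 held the highest value for 19 of the 35. Pdia6, a disulfide isomerase, measured 12.19, 11.14, 11.27 and 10.49 (-0.78, SE 0.36), with overlapping groups. Derl3, which helps export misfolded proteins for degradation, was higher in both exposed arrays, at 4.09, 3.89, 4.88 and 4.59 (0.74, SE 0.30).

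Genes of this response are known to share a promoter motif, the ER stress response element, in which CCAAT and CCACG stand 9 bases apart (CGTGG and ATTGG when read from the other strand). In RefSeq promoters of the mouse build GRCm38.p6, searched over the 250 bases before each start on both strands, it occurred in 35 of 27025 genes (0.13%) and in 9 of 33 genes of the list with a promoter entry (27.3%). The windows below are given 5' to 3' on the strand of the gene, with the fixed bases of each match in capitals, to set Hspa5 and Pdia6 beside Derl3, whose values went the other way, and Hsp90b1, which carries 2 matches and was chosen for this after its values were seen. They lie at chr2:34772013-34772055 (plus strand, Hspa5), chr12:17266479-17266521 (plus, Pdia6), chr10:75893230-75893272 (plus, Derl3) and chr10:86705521-86705668 (minus, Hsp90b1).
Hspa5: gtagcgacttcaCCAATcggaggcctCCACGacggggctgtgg
Pdia6: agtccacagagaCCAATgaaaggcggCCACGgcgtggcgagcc
Derl3: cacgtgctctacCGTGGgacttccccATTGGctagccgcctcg
Hsp90b1: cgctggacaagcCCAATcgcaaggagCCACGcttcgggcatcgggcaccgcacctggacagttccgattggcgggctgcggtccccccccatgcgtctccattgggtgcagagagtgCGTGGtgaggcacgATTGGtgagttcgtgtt

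The match ends 46 bases before the start of Hspa5, 79 before that of Pdia6 and 137 before that of Derl3, where it lies on the other strand. Of the 9 list genes with a match 7 were lower in exposed hippocampus (median -0.36), and of 22 tested genes without one 14 were lower (median -0.14). Against control 1 alone 7 of the 9 were lower (median -0.67), against 16 of the 22 (-0.25), and against control 6 alone 5 of the 9 were lower (median -0.01), against 13 of the 22 (-0.15). Hsp90b1, the ER paralogue of HSP90, measured 15.51, 14.76, 14.77 and 14.79 (-0.36, SE 0.29), so control 1 alone was high and the difference was 0.02 without it. No match was found in the window of Xbp1. The list was made of genes known for this response, so its share of matches was partly fixed in advance. The 9 genes with a match include Hspa5, which the selection rule had picked as lower. The sequence match is a description and does not show binding.

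Cytosolic and mitochondrial heat shock genes had a median of -0.095 over 23 (15 lower), which was -0.255 against control 1 and 0.015 against control 6. The co-chaperone Dnajb1 measured 9.38, 9.20, 8.78 and 8.61 (-0.60, SE 0.24), and Bag3 measured 5.77, 6.11, 5.32 and 5.38 (-0.59, SE 0.29). Hspb1 measured 4.89, 4.41, 4.24 and 3.58 (-0.74, SE 0.33). All 3 were lower in both exposed arrays, the last with an exposed mean under the filter limit. Hspa4l was higher in both exposed arrays, at 12.53, 12.91, 13.07 and 13.19 (0.41, SE 0.23). Of the 23, 5 were apart in the lower direction (14.2% of all named genes) and 3 in the higher (16.7%).

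NRF2 targets and antioxidant enzymes had a median of -0.255, with 26 of 35 lower. The median was -0.385 against control 1 and 0.015 against control 6, and control 1 held the highest value for 20 of the 35. Gpx8, a glutathione peroxidase of the ER, measured 7.63, 6.06, 5.23 and 5.07 (-1.70, SE 0.44); its difference was -2.48 without control 6 (limma adjusted p = 0.011) and -0.91 without control 1. The glutathione transferase gene Gstt1 measured 4.44, 4.37, 3.31 and 3.40 (-1.05, SE 0.29), with an exposed mean under the filter limit. Catalase, Cat, measured 13.39, 12.26, 12.26 and 11.75 (-0.82, SE 0.39), and glutathione reductase, Gsr, 9.61, 9.84, 8.93 and 9.43 (-0.55, SE 0.27). Cat was high in control 1, and control 6 equalled exposed 3.

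Nr2f2, also called COUP-TFII, is a nuclear receptor found in interneurons, blood vessels and mesenchyme. It measured 10.42, 9.94, 8.91 and 8.89 (-1.28, SE 0.31), and cortex averaged 7.37 in controls and 7.36 in exposed arrays. The neurokinin receptor gene Tacr3 measured 5.87, 5.90, 4.96 and 4.16 (-1.32, SE 0.33). Banp, a DNA-binding nuclear protein, measured 10.77, 10.48, 9.59 and 8.99 (-1.34, SE 0.35), and the splicing factor gene Scnm1 measured 8.99, 8.62, 7.68 and 7.67 (-1.13, SE 0.28). The controls of these genes lay within 0.5 of each other and more than 0.8 above the exposed arrays.

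Decorin, Dcn, a proteoglycan of fibroblasts and meninges, measured 11.95, 11.94, 10.79 and 9.47 (-1.82, SE 0.48), and Ccdc3, a secreted protein gene, measured 7.92, 7.73, 6.71 and 6.35 (-1.30, SE 0.34). AW551984 measured 6.21, 6.69, 4.85 and 4.87 (-1.59, SE 0.39). Dcn was alone among meningeal and fibroblast markers in having both exposed arrays below both controls (1 of 27 tested, against 14.2% of all named genes). Eps8l1, Olfr180 and Vmn1r137 completed the 15, with differences of -1.46, -1.90 and -1.62 and exposed means under the filter limit. Among the 3 pituitary hormone genes tested, Gh measured 4.42, 6.00, 3.36 and 3.53 (-1.76, SE 0.52) and Tshb 6.02, 5.85, 5.09 and 4.93 (-0.92, SE 0.29). The exposed mean of Gh was under the limit too. Fshb measured 4.29, 4.47, 3.78 and 4.77 (-0.10, SE 0.43), and its groups overlapped.

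The remaining selected lower genes, Stoml3 and 1700007K13Rik, are members of the list of motile cilia genes, which ependymal cells of the ventricle express. Stoml3 measured 7.92, 7.53, 6.47 and 5.58 (-1.70, SE 0.38) and 1700007K13Rik 7.39, 6.18, 5.09 and 4.44 (-2.02, SE 0.48). Of the same list, Ak7, an adenylate kinase of cilia, measured 6.66, 5.33, 4.08 and 4.78 (-1.56, SE 0.42), and Ubxn10 measured 6.37, 5.01, 3.84 and 4.24 (-1.65, SE 0.46). All 4 were lower in both exposed arrays, yet control 1 exceeded control 6 by more than 1 in all but Stoml3. Of 20 tested ependymal and cilia genes 17 were lower, with a median of -0.435 (-0.55 against control 1 and -0.36 against control 6). Of the 20, 8 had both exposed arrays below both controls (14.2% of all named genes), and 12 were highest in control 1. The summed level of the list, on the log2 scale, was 11.52 and 10.82 in the controls and 10.32 and 10.27 in the exposed arrays.

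The choroid plexus list moved with 1 array. All 19 tested members of 24 on the array were lower in the exposed mean (median -2.39), and 18 of 19 were highest in control 1. The median was -4.685 against control 1 and -0.095 against control 6, and the summed level was 19.57 and 10.16 in the controls and 10.31 and 9.83 in the exposed arrays. Over all named genes, control 1 exceeded control 6 most in Ttr, Folr1 and the following genes. Members of this list were the potassium channel genes Kcnj13 (13.44 and 4.50) and Kcne2 (9.26 and 3.46), the chloride channel gene Clic6 (12.44 and 4.48), the clotting factor gene F5 (9.04 and 2.60) and the homeobox gene Otx2 (9.55 and 3.49). The sulfatase gene Sulf1 (11.56 and 6.09) belongs to the list of subicular and deep cortical markers instead. Apart from Ttr and Folr1, the exposed arrays of these genes lay between 3.13 and 6.64. Without control 6, 56 probe sets passed the adjusted threshold, 4 higher and 52 lower, with Kcnj13, Kcne2, Clic6, F5, Otx2, Sulf1, Folr1, Gpx8, Ak7 and 1700007K13Rik among the lower ones, and without control 1 none passed. Of the 19 tested members 8 were lower in both exposed arrays than in either control (14.2% of all named genes). Among them were Ttr, as listed above, Calml4, at 7.47, 4.80, 3.58 and 4.09, and Car12, at 10.57, 8.32, 7.88 and 7.30. The part of choroid plexus and ependymal RNA in the lower genes named above was not tested beyond the values given against each control.

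The largest gaps in favour of control 6 were smaller. They were found for Sprr2j-ps (4.25 in control 1 and 6.77 in control 6), Fgf7 (2.59 and 5.10), Cenpu (3.99 and 6.46), Vmn1r168 (3.53 and 5.80) and 2900060B14Rik (15.80 and 18.04). The first 4 measured at most 6.77 in every hippocampus array.

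The exposed arrays differed in matrix genes of the meninges and fibroblasts. Fibromodulin, Fmod, measured 9.02 in exposed 3 and 4.04 in exposed 6, the prostaglandin synthase gene Ptgds 16.35 and 13.08, the growth factor gene Igf2 12.12 and 9.33, the matricellular gene Ccn2 7.63 and 4.85, and Fam180a 6.77 and 4.04. Of 27 tested meningeal and fibroblast genes 21 were highest in exposed 3, and the list's median difference from the control mean was 0.73 in exposed 3 and -0.485 in exposed 6. Ccn2 was above both controls (3.90 and 4.17) in each exposed array, with a difference of 2.20 (SE 0.63), of 3.60 without exposed 6 (limma adjusted p = 0.01) and of 0.82 without exposed 3. Higher in exposed 6 were Fstl1 (4.61 in exposed 3 and 8.14 in exposed 6), Sprr2j-ps (3.58 and 5.87), Serpinb7 (2.49 and 4.71), Speer4b (3.81 and 5.76) and Ccdc81 (3.11 and 5.0). Ribosomal protein genes split the same way as the matrix genes: 29 of 37 were highest in exposed 3, with medians of 0.425 in exposed 3 and -0.165 in exposed 6. The plot of 4 lists by array shows these patterns.

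**Figure D4:**
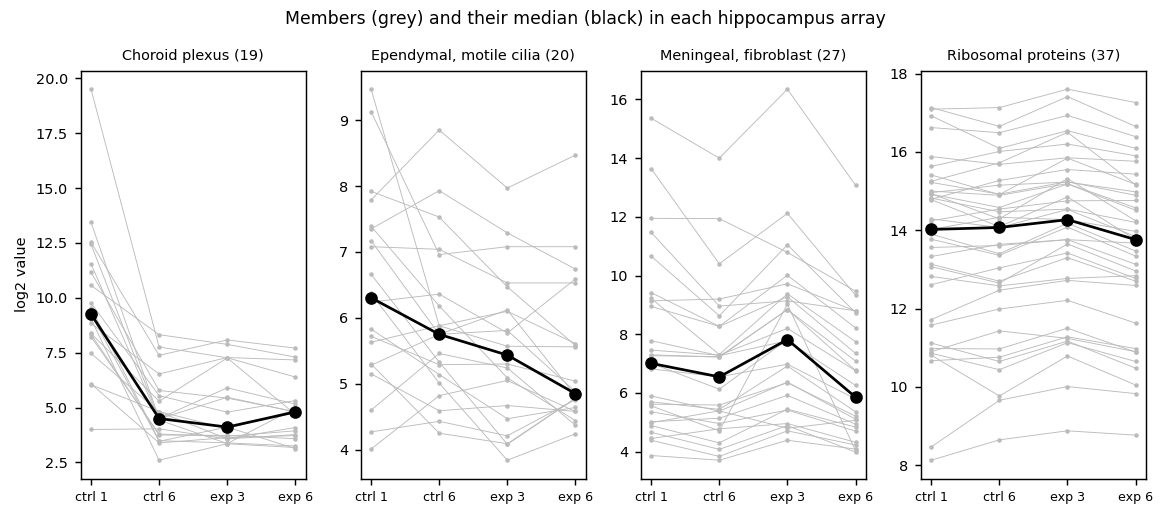
Log2 values (y axis) of each tested member (grey) and their median (black) in the 4 hippocampus arrays (x axis; lines join 1 gene across separate samples and stand for no order) for 4 lists. The choroid plexus median is high in control 1 only (9.26 against 4.11 to 4.80), and the meningeal median is highest in exposed 3 (7.82) and lowest in exposed 6 (5.86).

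Glial and vascular lists had medians near 0. Astrocyte markers had a median of 0.04 (23 tested), microglial markers -0.02 (26), oligodendrocyte markers -0.10 (26) and endothelial and mural cell markers 0.115 (25). In single exposed arrays the endothelial median was 0.335 (exposed 3) and -0.03 (exposed 6), and the oligodendrocyte median was -0.278 against control 1 and 0.04 against control 6. Single members stood apart without a shared direction: the endothelial phosphatase gene Ptprb measured 6.30, 6.10, 7.08 and 7.30 (0.99, SE 0.27), and the oligodendrocyte factor gene Olig2 10.75, 9.95, 9.26 and 9.73 (-0.85, SE 0.35). The myelin gene Opalin differed by 0.59 (SE 0.27), with both exposed arrays above both controls. Oxidative phosphorylation genes had a median of -0.065 over 53 members, whose sign depended on the array: -0.25 against control 1 and 0.135 against control 6, and 0.13 in exposed 3 and -0.305 in exposed 6. The plot of list medians sets these beside the neuronal lists.

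**Figure D5:**
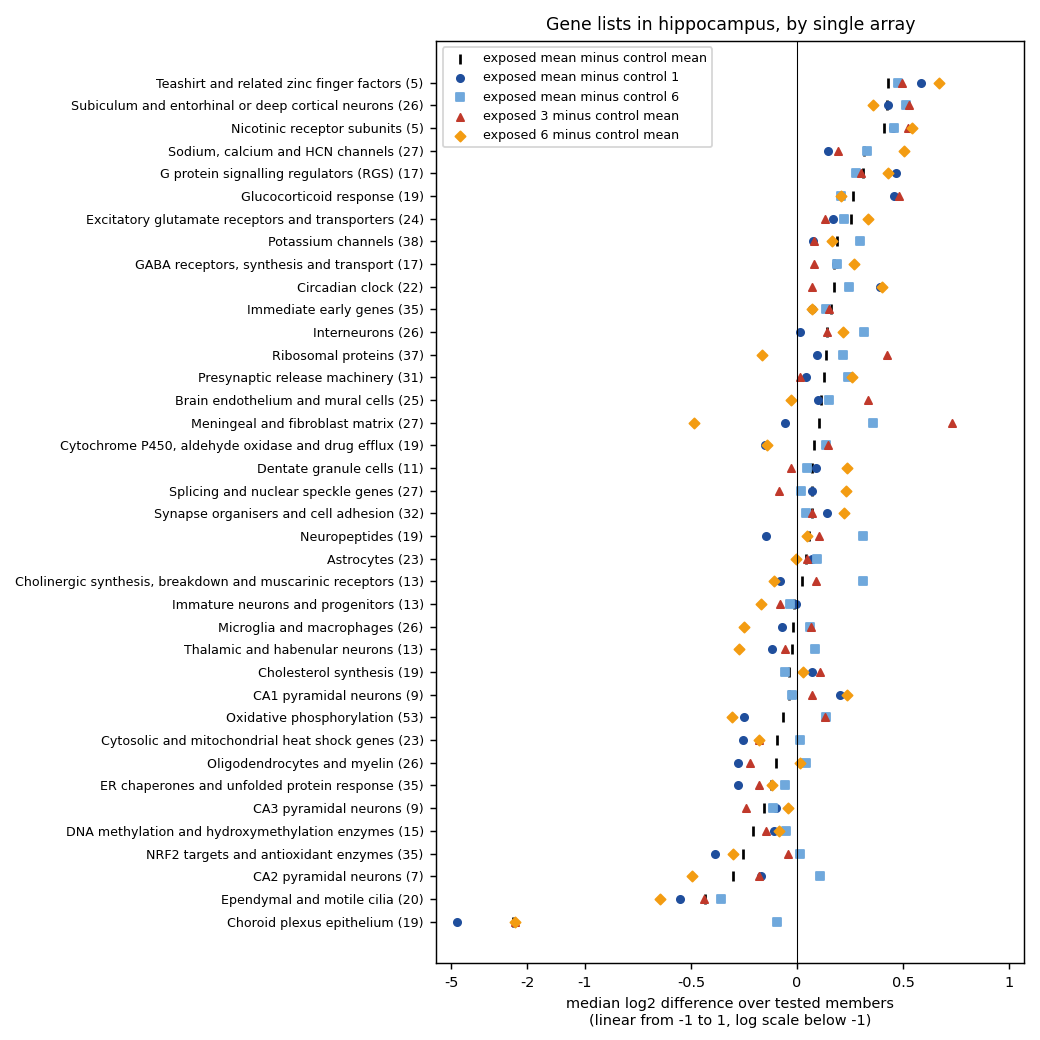
Median log2 difference over the tested members (number in brackets) of each list with at least 5, for the exposed mean minus the control mean and for single arrays as marked (x axis; linear from -1 to 1, log scale below -1). Many lists lie to the right of 0 for every array. Among them are the teashirt list (which counts Tshz2) and the subicular, nicotinic, RGS, glutamate, GABA, sodium and calcium channel, potassium channel, clock and glucocorticoid lists. The choroid plexus list reaches -4.685 against control 1 and -0.095 against control 6.

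The exposure difference in hippocampus was last set against that in cortex, in 1 model over all 8 arrays. No probe set of 14804 passed the adjusted threshold for the difference between the tissues (0%), and 511 (3.45%) had an unadjusted p under 0.05 by limma. Of the selected higher genes the smallest p belonged to Tshz2, with a hippocampus minus cortex difference of 2.02 (SE 0.44), then Vmn2r121 (1.92), Tet2 (1.70), Pnpla7 (1.66) and Rxfp1 (1.70). Tet2, which oxidises methylated cytosine, measured 6.40, 6.07, 7.36 and 7.10 in hippocampus, and its cortex means were 7.30 in controls and 6.60 in exposed arrays. The phospholipase gene Pnpla7 measured 5.75, 5.72, 6.80 and 6.85, with cortex means of 6.14 and 5.56. Both thus went up in hippocampus arrays and down in cortex arrays in value, without passing the test.

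Of the selected lower genes the smallest p for that difference belonged to Vmn1r137 (-2.02), Stoml3 (-2.18), Nubp1 (-1.44), Necab2 (-1.61) and Car12 (-2.66). Nubp1, an iron-sulfur cluster assembly gene, measured 8.09, 8.34, 7.21 and 7.40 in hippocampus, with cortex means of 7.00 in controls and 7.52 in exposed arrays. The unadjusted limma p of these 10 genes lay between 0.00044 and 0.005, and none passed after adjustment. They come from genes selected for their hippocampus difference, which is itself part of this contrast. Small p-values are therefore partly built in and are no separate evidence of a difference between tissues. Leng8, by contrast in value, was higher in exposed arrays of both tissues, by 1.67 in hippocampus and 1.16 in cortex.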

How the data were processed

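Total RNA of 8 samples, accepted above an integrity number of 7.0 per the labels' protocols, was amplified, labelled (GeneChip WT kits) and hybridised to Affymetrix arrays. The authors deposited 1 log2 value per probe set and array, made with RMA per the submitters' processing notes. RMA's version, and whether all arrays entered 1 run of it, were not given in the sources used here. No log base is written in the table, and log2 was assumed from RMA's usual output and the range of values. Scanner files were not used here.

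GEO's platform annotation gave 1 symbol for 19572 probe sets and none for 2634. All 19572 matched RefSeq genes (GRCm38.p6) by Entrez identifier, and 55 genes had more than 1 probe set. The 33.3% of probe sets with the lowest mean across the arrays (under 3.94) were dropped, which left 14804. The 13198 named genes among them were counted with 1 probe set each. All 8 arrays entered a linear model with a mean for each of the 4 groups, in limma 3.58.1 under R 4.3.3 (lmFit, eBayes with trend, with 4 residual degrees of freedom and 7.918 from the prior). All p-values are two-sided and were adjusted by Benjamini-Hochberg over all probe sets tested. Sequences come from RefSeq promoters. An exact permutation test of 2 arrays against 2 could not go below p = 0.333 and was not used.

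The members, the 40 lists and the tests were chosen with earlier results of these data known. Genes were named by a rule: those past the adjusted threshold; the first 15 per direction of the selection described in the report; those with the largest gaps within a group (8 for control 1, 5 otherwise); up to 4 per list with the smallest p; 5 per direction for the difference between tissues; and Tshz2, Ttr, Folr1, Hspa5, Xbp1, Chrna4, Chrna7, Chrnb2 and Gh. Nts and Vip come from the neuropeptide list. In simulated data of this design, limma recovered 1.05% of 2-fold changes, with 1 wrong call, and 98.9% of 4-fold changes, with 11. A 2-fold difference was thus rarely called in these simulated arrays. Their noise was independent between probe sets and drawn toward the typical spread. It held no shift shared by many genes of 1 array, such as that of control 1. The rates therefore do not carry over directly to the real arrays. Alternatives were other filters, quantile normalization, eBayes settings, array weights, hippocampus arrays alone, a replicate block and leaving out arrays.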

Additional observations from a re-analysis of the deposited data

How the results depend on the processing

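The number of probe sets past the adjusted threshold in hippocampus was 1 with no filter, with the lowest 50% left out, with robust eBayes and with the replicate block. It was 0 with quantile normalization of 8 arrays or within each tissue, without the mean-variance trend, with array weights, with only the hippocampus arrays and when both control arrays with high Ttr were dropped, and 0 to 56 when 1 array was left out. The control arrays with high Ttr were hippocampus control 1 and cortex control 6. The replicate block treats arrays of an arm and number as paired across tissues (consensus correlation 0.19). The labels do not say that these numbers mark an animal, and the block left hippocampus arms, which share only number 6, unpaired. With the block the between-tissue count was 3 in place of 0 (Nr4a2, 2.26, limma adjusted p = 0.041, and 2 unnamed probe sets), and it was 0 to 30 when 1 array was left out. The selected higher genes, 93 as reported, numbered 61 with array weights and 36 with only the hippocampus arrays, and 57 to 77 without 1 cortex array. The selected lower genes, 67 as reported, numbered 109 with no filter, 38 with the lowest 50% left out and 33 with only the hippocampus arrays, and 50 to 59 without 1 cortex array; these counts were added after the data were seen. Differences changed sign for 19 of the 121 named genes followed over the alternatives, which do not include Cacng5, Hspa4l and Fshb. When 1 array was left out they spanned -0.78 to 0.21 (Chrna7), -0.02 to 0.54 (Chrnb2), -0.27 to 0.86 (Tshz1), -0.73 to 0.02 (Hsp90b1), -1.05 to 0.09 (Ly6e), -7.91 to 1.03 (Kcnj13), -7.30 to 0.65 (Clic6), -5.78 to 0.66 (F5), -5.64 to 0.16 (Kcne2), -5.38 to 0.09 (Sulf1), -2.04 to 0.47 (Sprr2j-ps), -2.02 to 0.45 (Cenpu), -1.73 to 0.54 (Vmn1r168), -0.85 to 1.39 (2900060B14Rik), -1.10 to 3.88 (Fmod), -1.60 to 1.67 (Ptgds), -2.92 to 0.32 (Igf2), -1.88 to 1.65 (Fstl1) and -0.61 to 1.34 (Speer4b). Without both arrays high in Ttr, Chrna7, Hsp90b1, Kcnj13, Clic6, F5, Kcne2, Sulf1 and Igf2 were at the upper ends and 2900060B14Rik at the lower end of these spans, and Speer4b was at -0.14. With either quantile normalization Ptgds was at -0.01. The cause of these shifts was not tested. No probe background was available, so genes near 3.94 may be at background.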

Other observations

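Probe sets without a gene symbol were outside the comparison of named genes. TC0900002778.mm.2 measured 6.13 and 5.65 in the control hippocampus arrays and 4.01 and 3.77 in the exposed ones (-2.0, SE 0.31, limma adjusted p = 0.25), while in cortex it measured 3.16 and 3.48 in controls and 4.69 and 4.42 in exposed arrays. TC1700001227.mm.2 measured 9.55, 5.58, 3.34 and 5.18 in hippocampus controls 1 and 6 and exposed 3 and 6, and 5.78, 4.01, 11.53 and 13.52 in the matching cortex arrays. Its difference between the tissues was -10.94. Both were chosen after their values were seen, and each had limma adjusted p = 0.0875 for the difference between the tissues.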
